A study of Mus musculus with 8 samples.

Results

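The 10 chemokine genes Ccl2, Ccl3, Ccl4, Ccl5, Ccl6, Ccl9, Cxcl1, Cxcl2, Cxcl12 and Cxcl16 were followed in RNA of isolated mouse hepatocytes with and without the cannabinoid receptor gene Cnr1. They were taken as every non-control probe whose accession maps to 1 of these genes, which gave 11 probes in 20 spots for 10 of the 21368 genes named on the array. The 8 preparations came from male mice of 12 to 14 weeks on a standard diet, with no treatment named in the labels, 4 hCNR1+/+ controls of the strain labelled CNRO and 4 hCNR1-/- mice of the strain labelled CNRO Alb-Cre. In the hCNR1-/- mice an albumin promoter drives Cre, which deletes the floxed Cnr1 gene in hepatocytes, so other liver cells carried over into a preparation keep the gene. Each preparation was hybridised to 1 single-colour array.

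Chemokines are small secreted proteins that bind receptors coupled to G proteins and draw leukocytes along a concentration gradient. They are classed as CC or CXC by the spacing of their first cysteines. In the liver, Kupffer cells, which are the resident macrophages, are a major source, and hepatocytes and endothelial cells also make several of them. Many chemokine genes are switched on by NF-kB, a transcription factor activated by inflammatory stimuli. Cxcl16 is unusual in being made as a membrane protein that proteases of the ADAM family release from the cell surface.

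Of these genes, 7 lie on chromosome 11 in the order Cxcl16, Ccl2, Ccl5, Ccl9, Ccl6, Ccl3 and Ccl4, and Cxcl1 and Cxcl2 are neighbours on chromosome 5, while Cxcl12 is on chromosome 6. RefSeq promoter sequences of the assembly GRCm38.p6 were at hand for 6 of the 10 genes (Ccl3, Ccl6, Ccl9, Cxcl1, Cxcl2 and Cxcl12). The 250 bases before the annotated start are shown for Cxcl1 and Cxcl2, neighbouring genes of 2 neutrophil attractants, and for Ccl3. Of the 10 genes only Ccl3 was called lower in hCNR1-/- hepatocytes at an adjusted p below 0.05 in limma, and this call depended on the processing. Capitals mark matches to the NF-kB-like motif GGGNNNTTCC on either strand, and overlapping matches run together.
Cxcl1, plus strand, chr5:90890995-90891244: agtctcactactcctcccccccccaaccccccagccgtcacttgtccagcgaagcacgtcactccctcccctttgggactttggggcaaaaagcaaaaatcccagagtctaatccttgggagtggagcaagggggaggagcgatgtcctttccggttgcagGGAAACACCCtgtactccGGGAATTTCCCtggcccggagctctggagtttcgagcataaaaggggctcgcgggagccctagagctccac
Cxcl2, plus strand, chr5:90903649-90903898: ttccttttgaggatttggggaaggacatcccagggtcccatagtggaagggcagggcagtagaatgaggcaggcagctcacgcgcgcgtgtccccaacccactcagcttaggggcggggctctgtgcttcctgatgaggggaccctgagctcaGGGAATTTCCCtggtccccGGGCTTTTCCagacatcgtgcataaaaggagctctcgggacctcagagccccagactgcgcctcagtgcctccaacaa
Ccl3, minus strand, chr11:83649379-83649628: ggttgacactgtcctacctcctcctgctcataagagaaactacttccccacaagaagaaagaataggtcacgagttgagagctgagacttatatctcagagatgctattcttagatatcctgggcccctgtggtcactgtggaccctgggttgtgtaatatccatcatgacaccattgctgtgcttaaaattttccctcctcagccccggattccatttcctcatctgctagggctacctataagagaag
Both CXC promoters hold the same 10 letters GGGAATTTCC, at 71 to 62 bases before the start of Cxcl1 and at 97 to 88 bases before that of Cxcl2, and in both the next base also makes a match on the opposite strand. Each holds 1 further match, at 89 to 80 bases before the start in Cxcl1 and at 78 to 69 in Cxcl2. Ccl9 has 1 match, and Ccl3, Ccl6 and Cxcl12 have none in this window. The motif was found in 4.65% of 32851 promoter windows of this length, and a match in letters is a description only.

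All 8 arrays lay on 1 slide, the controls in row 1 and the knockouts in row 2, so the row on the slide and the genotype cannot be told apart. In both rows the column on the slide was the same as the replicate number. Array brightness, taken as the 75th percentile over non-control spots, ran from 62.0 to 139 in hCNR1+/+ and from 29.3 to 124 in hCNR1-/- arrays. The share of these spots flagged well above background ran from 28.6% to 42.3%. Replicate 4 of hCNR1-/- was the dimmest array and had the lowest mean correlation with its group (0.94). The single Cnr1 probe was well above background on 0 of the 8 arrays and so does not check the genotype labels. Every array had all 12 hepatocyte markers well above background. With the 75th percentile scaling, limma called 144 of 11072 genes lower and 325 higher at an adjusted p below 0.05; the split was 206 to 101 when the percentile was taken over bright probes only, 25 to 25 with median scaling, 51 to 30 with the deposited value table and 29 to 1 without scaling. These counts also moved with single arrays, from 25 lower and 13 higher without hCNR1+/+ replicate 3 to 323 and 1121 without hCNR1-/- replicate 4, and were 646 and 2176 with array weights. The fit with the replicate block gave 0 calls in either direction in limma, against 732 lower and 1522 higher genes when the unadjusted p was held to 0.05. The background shares given for the adjusted p rest on the first of these counts. Nothing in the labels says more about how the replicates were raised, so p-values describe the spread between these preparations.

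Signal was measured as log2 of the spot intensity relative to the array's 75th percentile, so that a value of 0 is the brightness of the 75th percentile spot. Of the 10 genes, Ccl2, Ccl5, Ccl9, Cxcl1, Cxcl12 and Cxcl16 were well above background on all 8 arrays. Ccl3 was so on 7, Ccl4 on 6 and Ccl6 on 5, and Cxcl2 on none. The 9 genes other than Cxcl2 were well above background on at least 4 arrays and were tested between genotypes. At an adjusted p below 0.05 in limma, Ccl3 was lower in hCNR1-/- hepatocytes, against a background of 1.3% of all tested genes, and Cxcl16 was higher, against a background of 2.94%. The same pair passed at an unadjusted p below 0.05, where the backgrounds were 6.92% lower and 14.7% higher, and of the 2 only Cxcl16 also had a fold change above 2, where they were 3.75% and 4.78%. The remaining 7 did not pass this threshold. By sign alone 7 of the 9 were lower, where 43.4% of all tested genes were, and the median log2 fold change of the 9 was -0.65 against 0.08 over all tested genes. Without scaling, the median over all tested genes moved to -0.47 and that of the 9 chemokines to -1.20.

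**Figure D1:**
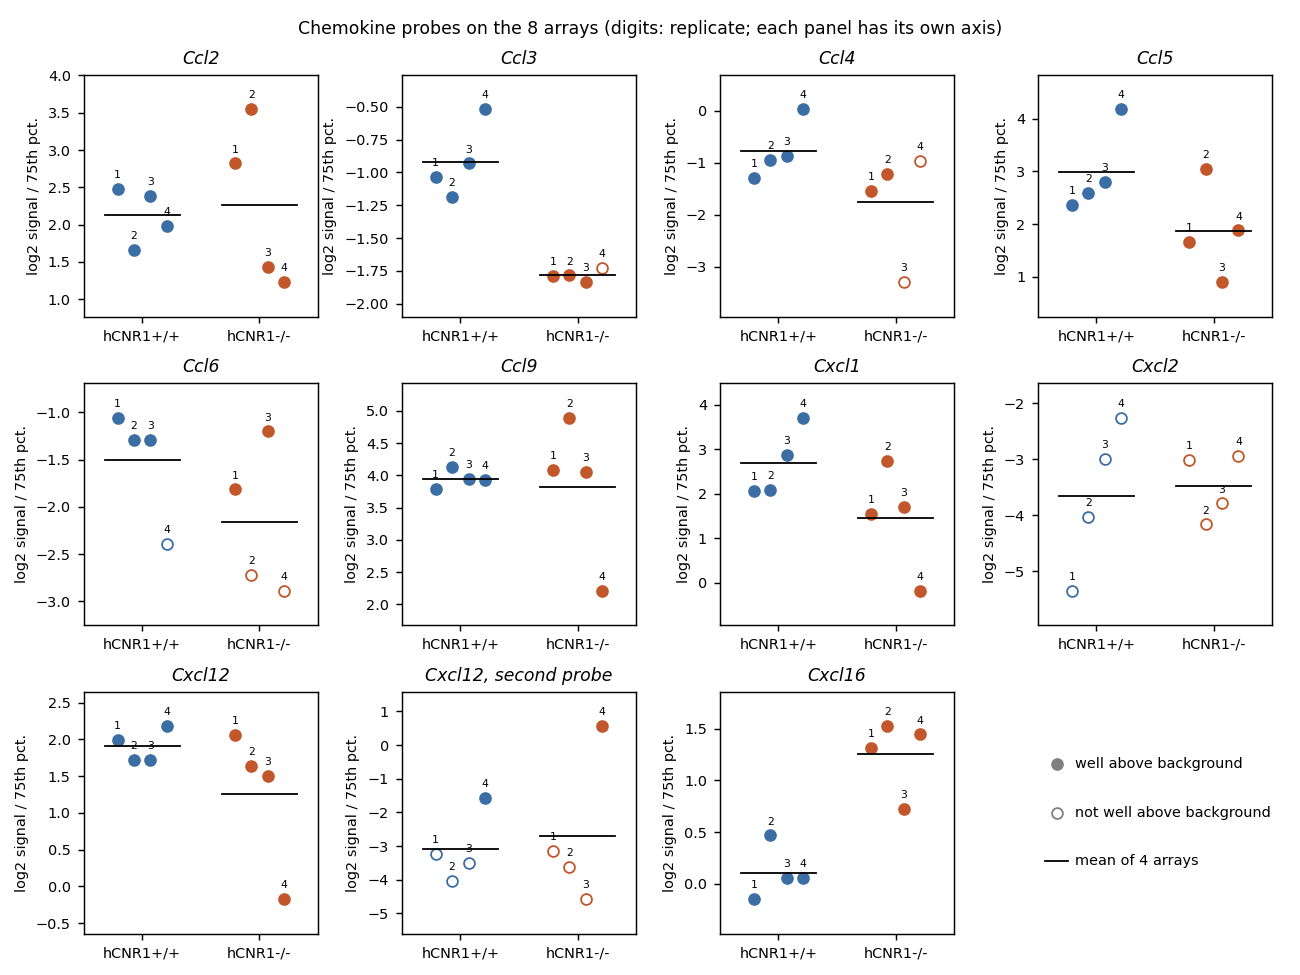
Log2 signal relative to the array's 75th percentile (vertical axis, a separate scale in each panel) for the 11 chemokine probes, with 4 hCNR1+/+ arrays in blue and 4 hCNR1-/- arrays in orange. Digits are replicate numbers, lines are means of 4 arrays, and open circles are spots not well above background. The genotypes separate without overlap in Ccl3 (-1.18 to -0.52 against -1.84 to -1.73) and in Cxcl16 (-0.15 to 0.47 against 0.72 to 1.52), and Cxcl2 is open on all arrays.

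Ccl3 encodes MIP-1alpha, a chemokine that attracts monocytes and T cells. Its log2 signal was -1.03, -1.18, -0.93 and -0.52 across hCNR1+/+ replicates 1 to 4. The knockouts had -1.79, -1.79, -1.84 and -1.73 in the same order, the last of these not well above background. All 4 hCNR1-/- values lay below all 4 hCNR1+/+ values, and they lay close together although the probe was dim. The means were -0.92 ± 0.29 and -1.79 ± 0.04 (SD, n = 4), a log2 fold change of -0.87 (SE 0.20), or a 1.83-fold lower signal, with an adjusted p of 0.0477 in limma. The exact permutation test over the 70 assignments of arrays gave its smallest possible two-sided p of 0.0286. This is 1 gene of the 5.04% of tested genes that were lower without overlap. The adjusted p was close to the threshold: it passed without hCNR1-/- replicate 4 (0.0247) and ran from 0.0775 to 0.143 when any 1 of the other 7 arrays was left out. With hCNR1-/- replicate 4 left out, 323 of 11072 tested genes were called lower, against 144 with all 8 arrays. With a normexp background correction the log2 fold change was -0.28 (adjusted p of 0.695 in limma). In bulk RNA, fewer cells of a type that makes a transcript and less of it per cell cannot be told apart.

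Cxcl16 encodes the membrane-bound ligand of Cxcr6, a receptor on NKT and activated T cells, and also acts as a scavenger receptor for oxidised lipoprotein. Its log2 signal was -0.15, 0.47, 0.05 and 0.06 across hCNR1+/+ replicates 1 to 4. The knockouts had 1.32, 1.52, 0.72 and 1.44 in the same order. Every hCNR1-/- array was above every hCNR1+/+ array, with hCNR1-/- replicate 3 the nearest to the controls, and the probe was well above background on all of them. The means were 0.11 ± 0.26 and 1.25 ± 0.36 (SD, n = 4), a log2 fold change of 1.14 (SE 0.24), or 2.21-fold, with an adjusted p of 0.0376 in limma and the smallest exact p of 0.0286. Among all tested genes 12.7% were higher without overlap. As for Ccl3, the call held without hCNR1-/- replicate 4 (adjusted p of 0.0282 in limma) and was lost without any 1 of the other 7 arrays (0.0554 to 0.119). Without hCNR1-/- replicate 4, 1121 of 11072 tested genes were called higher, against 325 with all 8 arrays. Without scaling the log2 fold change was 0.59 and with normexp 0.63.

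**Figure D2:**
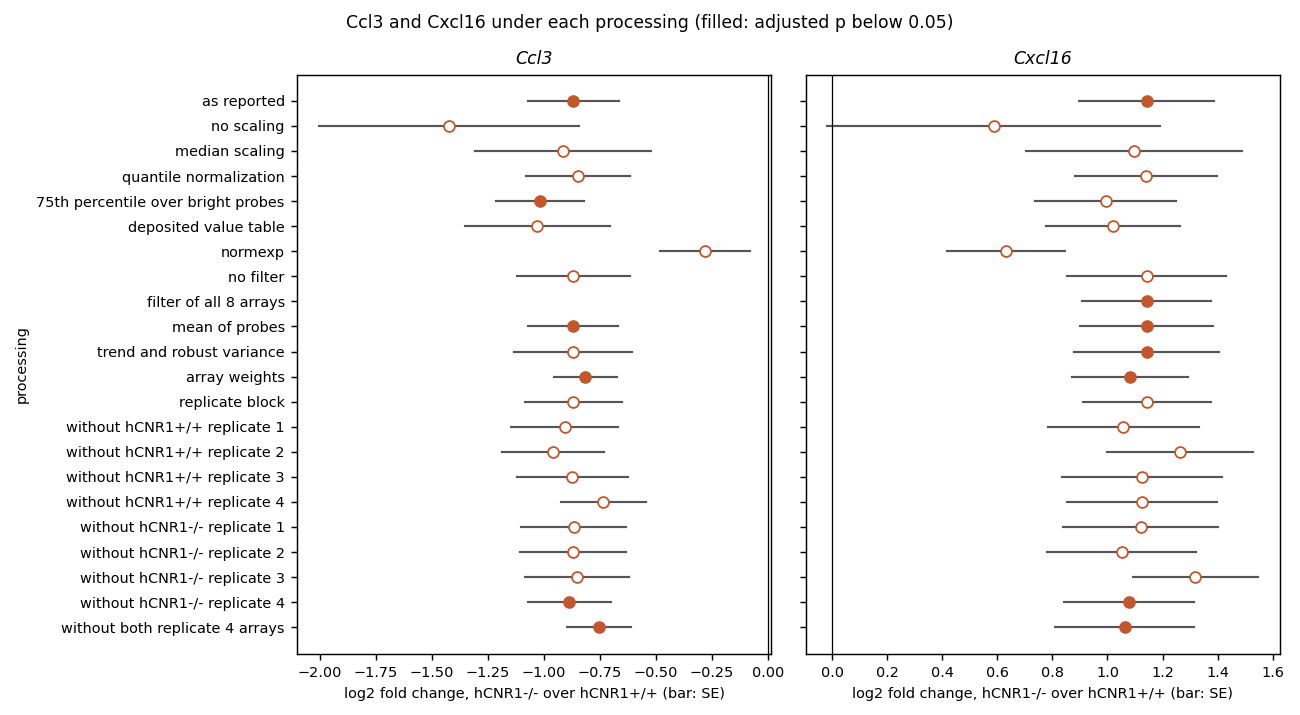
Log2 fold change of hCNR1-/- over hCNR1+/+ hepatocytes (horizontal axis, with the standard error as a bar) for Ccl3 and Cxcl16 under each processing listed on the vertical axis. Filled circles have an adjusted p below 0.05; Ccl3 stays below 0 (-1.42 to -0.28) and Cxcl16 above 0 (0.59 to 1.32), while the calls come and go.

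Ccl4, or MIP-1beta, attracts monocytes and T cells and is annotated next to Ccl3. Its log2 signal was -1.29, -0.94, -0.86 and 0.04 across hCNR1+/+ replicates 1 to 4, against -1.53, -1.21, -3.29 and -0.95 across hCNR1-/- replicates 1 to 4. The lowest value, in hCNR1-/- replicate 3, and that of replicate 4 were not well above background, and the groups overlapped. A log2 fold change of -0.98 was found, with a 95% confidence interval from -2.11 to 0.15 and an adjusted p of 0.294 in limma. Without hCNR1-/- replicate 3 it was -0.47.

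Ccl5, or RANTES, attracts T cells and monocytes. Its log2 signal was 2.36, 2.59, 2.80 and 4.18 across hCNR1+/+ replicates 1 to 4, and 1.66, 3.04, 0.90 and 1.88 across hCNR1-/- replicates 1 to 4. The highest value belonged to hCNR1+/+ replicate 4, and hCNR1-/- replicate 2 lay within the control range while the other 3 lay below it. This gave a log2 fold change of -1.11 (95% confidence interval -2.25 to 0.02, adjusted p of 0.240 in limma), and -0.72 without hCNR1+/+ replicate 4.

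Ccl2, or MCP-1, is the main ligand of Ccr2 and recruits monocytes into the liver. Its probe was spotted 10 times on each array, and the SD between these spots was 0.05 to 0.14 on the log2 scale, which sets the technical error within an array apart from the spread between preparations. The log2 signal was 2.47, 1.67, 2.38 and 1.99 across hCNR1+/+ replicates 1 to 4, against 2.82, 3.55, 1.43 and 1.23 across hCNR1-/- replicates 1 to 4. The hCNR1-/- arrays lay on both sides of the controls, 2 above all of them and 2 below all of them. The group SDs were 0.37 in hCNR1+/+ and 1.11 in hCNR1-/-, and the log2 fold change was 0.13 (95% confidence interval -0.98 to 1.24, adjusted p of 0.904 in limma). Its sign turned with the array left out, from -0.30 without hCNR1-/- replicate 2 to 0.47 without hCNR1-/- replicate 4.

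Ccl6 and Ccl9 are rodent CC chemokines that act through Ccr1 and are made by macrophages and other myeloid cells. The log2 signal of Ccl9 was 3.79, 4.13, 3.94 and 3.93 across hCNR1+/+ replicates 1 to 4, against 4.08, 4.90, 4.06 and 2.21 across hCNR1-/- replicates 1 to 4. The controls were tight (SD 0.14, n = 4), and the hCNR1-/- group spread around them (SD 1.13, n = 4) because replicate 2 was high and replicate 4 low. The log2 fold change of -0.13 (95% confidence interval -1.22 to 0.95, adjusted p of 0.897 in limma) became 0.40 without hCNR1-/- replicate 4. Ccl6 was dim, at -1.06, -1.29, -1.29 and -2.39 across hCNR1+/+ replicates 1 to 4, against -1.82, -2.72, -1.20 and -2.89 across hCNR1-/- replicates 1 to 4. It was well above background on 3 hCNR1+/+ and 2 hCNR1-/- arrays, and the groups overlapped. Its log2 fold change was -0.65 (95% confidence interval -1.61 to 0.31, adjusted p of 0.417 in limma), and -0.41 without hCNR1-/- replicate 4.

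Cxcl1 and Cxcl2 are neutrophil attractants that bind Cxcr2. The log2 signal of Cxcl1 was 2.06, 2.09, 2.88 and 3.71 across hCNR1+/+ replicates 1 to 4, against 1.54, 2.73, 1.70 and -0.18 across hCNR1-/- replicates 1 to 4. On 3 hCNR1-/- arrays it lay below all controls, replicate 4 by the widest margin, and replicate 2 lay among them. At -1.24 its log2 fold change was the lowest of the 9 tested chemokines, with a 95% confidence interval from -2.57 to 0.09 and an adjusted p of 0.264 in limma, and it was -0.70 without hCNR1-/- replicate 4. On no array was the Cxcl2 probe well above background, at intensities of 3.27 to 15.4, so no fold change is given.

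Cxcl12, or SDF-1, is a homeostatic chemokine that binds Cxcr4 and Ackr3 and holds blood progenitors and lymphocytes in place. Its brighter probe read 1.99, 1.73, 1.72 and 2.18 across hCNR1+/+ replicates 1 to 4, against 2.06, 1.64, 1.50 and -0.18 across hCNR1-/- replicates 1 to 4. Apart from replicate 4, the hCNR1-/- arrays were within or just below the control range. Its log2 fold change was -0.65 (95% confidence interval -1.62 to 0.33, adjusted p of 0.424 in limma) and -0.17 without that array. The second Cxcl12 probe, which targets another RefSeq transcript, was well above background only on replicate 4 of each genotype, and no fold change is given for it.

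Replicate 4 of hCNR1-/- was therefore the lowest array of its group for Ccl2, Ccl6, Ccl9, Cxcl1 and the brighter Cxcl12 probe and not for Ccl3, Ccl4, Ccl5 or Cxcl16. It was also the dimmest array of the 8, and the part of its brightness in these values was not tested. An alternative chosen after seeing the data left out hCNR1-/- replicate 4 and hCNR1+/+ replicate 4, which was the dimmest control. The median log2 fold change of the 9 chemokines was then -0.35 in place of -0.65. Over all tested genes the median was 0.20 in place of 0.08. Ccl3 (-0.75) and Cxcl16 (1.06) were still called (adjusted p of 0.0153 and 0.0271 in limma). In that fit 480 of 11072 genes were called lower and 1701 higher, against 144 and 325 with all 8 arrays.

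The rest of the chemokine system was read from 4 lists. Of 27 other chemokine ligands, 25 were on the array, 13 were well above background on no array and 8 were tested. Ccl24, an eosinophil attractant also made by macrophages, was called lower, against a background of 1.3% of all tested genes. Ccl27a, a ligand of Ccr10, was called higher, against a background of 2.94%. The other 6, Ccl19, Ccl25, Cxcl9, Cxcl10, Cxcl14 and Pf4, did not pass the test. A negative log2 fold change was found for 7 of the 8, where 43.4% of all tested genes had one.

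The log2 signal of Ccl24 was 0.22, -0.24, 0.01 and 0.16 across hCNR1+/+ replicates 1 to 4, against -1.51, -1.56, -1.27 and -2.27 across hCNR1-/- replicates 1 to 4. The lowest value, in hCNR1-/- replicate 4, was not well above background, so the size of the difference is uncertain. The genotypes did not overlap, and 5.04% of all tested genes were lower without overlap. Its log2 fold change was -1.69 (SE 0.25), or 3.24-fold lower, with an adjusted p of 0.0138 in limma, which was lost without hCNR1+/+ replicate 3 (0.0606) and held without each of the other arrays in turn. With normexp it was -0.63. Ccl27a read 2.07, 2.43, 2.14 and 2.05 across hCNR1+/+ replicates 1 to 4, against 3.03, 3.25, 3.12 and 3.05 across hCNR1-/- replicates 1 to 4. All hCNR1-/- arrays were above all controls on its brightest probe, as in 12.7% of all tested genes. It had a log2 fold change of 0.94 (SE 0.19, adjusted p of 0.0303 in limma), and the adjusted p was 0.0138 without hCNR1-/- replicate 4 and from 0.0566 to 0.110 without any 1 of the other 7 arrays. The fit without hCNR1-/- replicate 4 called 1121 of 11072 tested genes higher, against 325 with all 8 arrays. The mouse genome holds near-identical copies of Ccl27a, so which copy the probe reads is uncertain. Outside the rule by which genes were named, the interferon-induced ligand Cxcl10 had a log2 fold change of -1.73 (95% confidence interval -3.12 to -0.34) and Pf4, which platelets carry, one of -0.91 (-1.66 to -0.17), with adjusted p of 0.145 and 0.152 in limma.

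Among 23 chemokine receptors, 18 were well above background on no array, including Ccr1, Cxcr2, Cxcr4 and Cxcr6. The 4 tested were the scavenging receptors Ackr2 and Ackr3, the atypical receptor Ccrl2, and Ccr8; Ackr2 and Ccr8 each had 1 probe well above background on all arrays and 1 on none. Their log2 fold changes were -0.60, -0.83, -0.62 and -0.16 in that order, and 0 passed the test at an adjusted (0.307 to 0.738 in limma) or an unadjusted p below 0.05. All 4 confidence intervals held 0.

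Of 11 genes for the shedding, cleavage and presentation of chemokines, 8 were tested and 1 passed. Among all tested genes 2.94% were called higher and 1.3% lower. At an unadjusted p below 0.05 in limma, 2 of the list were lower and 2 higher, where the shares were 6.92% and 14.7%. Adam10, the protease that releases Cxcl16 from the membrane, was higher, at 0.41, -0.09, -0.27 and -0.83 across hCNR1+/+ replicates 1 to 4, against 1.04, 0.87, 1.70 and 1.53 across hCNR1-/- replicates 1 to 4. The groups did not overlap, as for Cxcl16 and for 12.7% of all tested genes in this direction. Of the list, 2 genes were higher and 2 lower without overlap, where 5.04% of all tested genes were lower in this way. Adam10 had a log2 fold change of 1.48 (SE 0.31), or 2.79-fold, with an adjusted p of 0.0343 in limma. That call held without hCNR1+/+ replicate 1 (0.0373) and without hCNR1-/- replicate 4 (0.0306), and the adjusted p ran from 0.0599 to 0.110 without any 1 of the other 6 arrays. Of 11072 tested genes, 143 were called higher without hCNR1+/+ replicate 1 and 1121 without hCNR1-/- replicate 4. Adam17, the related sheddase, was well above background on 2 arrays at most and was not tested.

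Among 19 NF-kB and interferon regulators of chemokine genes, 16 were tested and none passed at an adjusted p below 0.05 in limma, while 4 were higher and 0 lower at an unadjusted p below 0.05, where the shares of all tested genes were 14.7% and 6.92%. By sign 11 were higher, where 56.6% of all tested genes were, and 5 lower, and the median log2 fold change was 0.22. The pair with the largest changes among those 4 was Chuk, a kinase that activates NF-kB, and Nfkb2, an NF-kB subunit. Chuk had a log2 fold change of 0.83 (95% confidence interval 0.05 to 1.60) and Nfkb2 of 0.61 (0.09 to 1.14), with adjusted p of 0.207 and 0.169 in limma. Chuk was at 0.49 without hCNR1+/+ replicate 4, and without scaling Chuk was at 0.27 and Nfkb2 at 0.06.

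**Figure D3:**
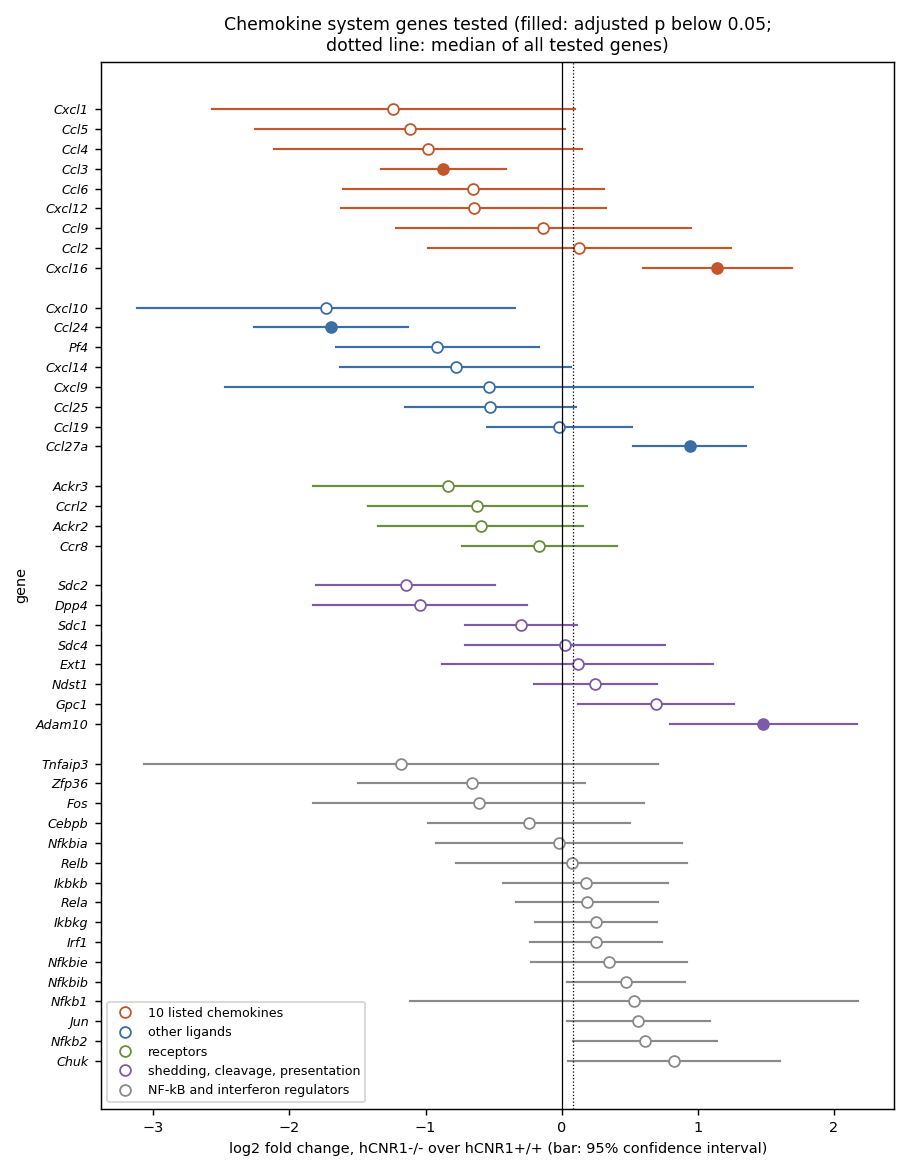
Log2 fold change of hCNR1-/- over hCNR1+/+ hepatocytes (horizontal axis) with its 95% confidence interval for the 45 tested genes of the chemokine system, by list. Filled circles have an adjusted p below 0.05 and are Ccl3 (-0.87) and Ccl24 (-1.69) on the left and Cxcl16 (1.14), Ccl27a (0.94) and Adam10 (1.48) on the right; the dotted line is the median of all tested genes (0.08).

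Markers of other liver cells were read on the same arrays. Of 16 Kupffer cell and macrophage markers 12 were tested, and all 12 had a negative log2 fold change, where 43.4% of all tested genes did. Their median was -0.98, against 0.08 over all tested genes. Marco, a scavenger receptor, and Ctss, the protease cathepsin S, passed the test, where 1.3% of all tested genes were called lower. Their log2 fold changes were -2.41 (SE 0.49) and -1.89 (SE 0.27), with adjusted p of 0.0336 and 0.0124 in limma. Ctss was well above background on 4 hCNR1+/+ but only 2 hCNR1-/- arrays. Over the alternatives in which it was tested, Marco ran from -2.96 to -1.78 (adjusted p up to 0.134 in limma). Ctss ran from -2.45 to -0.60 (adjusted p up to 0.325 in limma). Leaving out 1 array at a time, the adjusted p of Marco ran up to 0.0968 and was above 0.05 without hCNR1+/+ replicate 2 or 3 and without hCNR1-/- replicate 1, 2 or 3, and that of Ctss ran up to 0.0568 and was above 0.05 without replicate 3 of either genotype. The mean log2 signal of the 12 ran from 1.03 to 2.22 in hCNR1+/+ and from -0.05 to 0.72 in hCNR1-/- preparations, with no overlap. Of the defining markers, Timd4 and Cd163 were well above background on no array. The brightest marker was Cd68, at 6.04 ± 0.38 and 5.21 ± 0.09 (SD, n = 4).

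Ccl3, Ccl24 and the mean of the macrophage markers were each lower on all 4 hCNR1-/- arrays than on any control, as is every gene lower without overlap. The part of these cells in the differences of Ccl3 and Ccl24 was not tested. The mean of the 12 hepatocyte markers ran from 8.70 to 9.52 in hCNR1+/+ and from 8.63 to 9.09 in hCNR1-/- preparations, with Serpina1a, which has near-identical paralogs, the brightest, at 11.66 ± 0.45 and 12.21 ± 0.78 (SD, n = 4). For sinusoidal endothelial cells, 9 of 11 markers were tested, 6 of them negative, where 43.4% of all tested genes were. Their means ran from 0.57 to 1.56 in hCNR1+/+ and from 0.46 to 1.15 in hCNR1-/-. The brightest was Kdr, which had another probe that was well above background on no array.

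Few markers of the remaining cell types could be read. Of 10 neutrophil markers on the array 7 were well above background on no array, and the 2 tested, Elane and Csf3r, had log2 fold changes of opposite sign and did not pass the test. Of 14 T, NK and B cell markers 10 were well above background on no array, among them Cd3d, Cd3g and Cd79a. The 3 tested were higher by sign, where 56.6% of all tested genes were. Their means ran from 3.57 to 4.01 in hCNR1+/+ and from 3.98 to 5.30 in hCNR1-/-. Cd4 was the brightest, and Cd4 and Nkg7 each had another probe that was well above background on no array. The 3 tested stellate cell markers, led by Ecm1, and the 2 tested cholangiocyte markers, led by Sox9, included none that passed the test. 

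**Figure D4:**
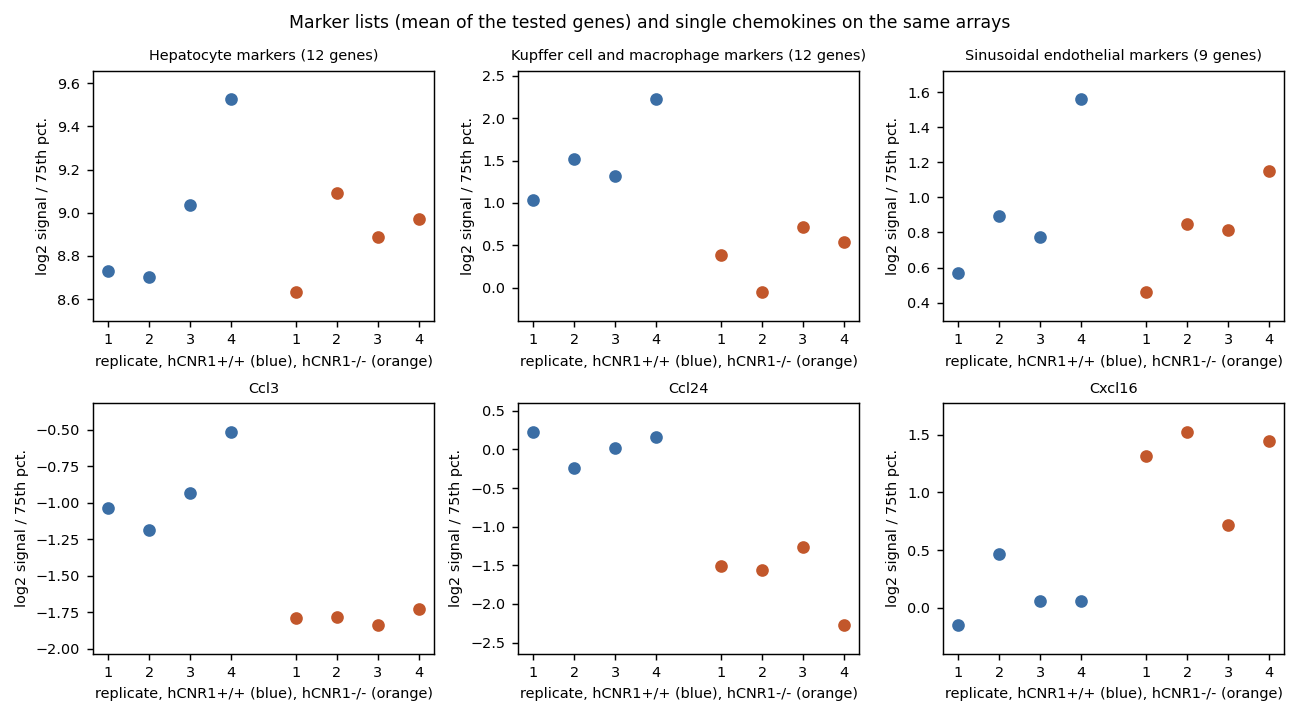
Log2 signal relative to the array's 75th percentile (vertical axis, a separate scale in each panel) on the 8 arrays (horizontal axis, replicates 1 to 4 of each genotype): the mean over tested markers in the upper row, and Ccl3, Ccl24 and Cxcl16 in the lower row. Macrophage markers, Ccl3 and Ccl24 lie lower on all hCNR1-/- arrays, Cxcl16 lies higher, and hepatocyte and endothelial markers overlap between genotypes.

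For each chemokine well above background on all arrays, the 3 tested genes with the highest Pearson correlation of log2 signal over the 8 arrays are given as a description, since all values share the arrays and their brightness. Closest to Cxcl16 were Aprt, Pef1 and Rps10, at 0.99, 0.99 and 0.98, and all 3 had positive log2 fold changes (0.73, 0.45 and 0.83). The nearest to Cxcl12 were Emc3, Clns1a and Rnf14, each at 0.99. Cxcl1 ran closest with Ctu1 (1.00 when rounded), Phrf1 and Dpys (each 0.98), and Ccl9 with Crim1 (0.99), Ttc7b and C1qbp (each 0.98). Ccl5 had Coq8a (0.97), Qprt (0.95) and Inhbc (0.94) as neighbours, and Ccl2 had Pex10 (0.94), Necap2 and Arpin (each 0.91). None of these 18 genes is a chemokine.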

How the data were processed

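Hepatocyte RNA labelled as 4 hCNR1+/+ and 4 hCNR1-/- preparations was measured on 1-colour Agilent arrays. The legend of the study gives a smaller number per genotype without saying which arrays it leaves out, so all 8 labelled arrays were used. The authors deposited the spot intensity of the Feature Extraction software (version 12.0.3.1), corrected for background but not scaled between arrays, and a score that differed by at most 0.005 from each array's log2 z-score. Genotypes came from the sample labels. From the log2 intensity of each spot, that of the 75th percentile over 59305 non-control spots was subtracted, after which outlier-flagged spots were dropped and the spots of each probe averaged. A probe counted as detected on an array (well above background) if 50% or more of its spots carried that flag. Probes were named by accession, ignoring versions, from RefSeq for GRCm38.p6; the array design names an older build, so no gene coordinates were carried over. A gene was tested if detected on 4 or more of the 8 arrays, by its brightest probe, with lmFit and eBayes of limma 3.58.1 in R 4.3.3 (two-sided, Benjamini-Hochberg over 11072 genes). Exact permutation tests ran over 70 assignments. The fit was also run on simulated data with independent noise for each gene. That simulation held no effects shared by an array, so it cannot check the fit under the brightness differences seen here. The number of arrays limits the precision. The 10 chemokines and all lists were chosen with earlier results of these data known. Beyond the 10, each pathway list contributed by name its genes at an adjusted p below 0.05, or failing those the 2 largest changes at an unadjusted p below 0.05; each cell type list contributed its brightest gene and those at an adjusted p below 0.05. Other genes are named where a small count needed it and were chosen after their values were seen. Alternatives were further scalings, the deposited score rescaled to log2 units, normexp (on median spot signals, offset 50), 2 other filters, the mean of probes, trended and robust variance, array weights, the replicate number as a block, and arrays left out.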

Additional observations from a re-analysis of the deposited data

Results flagged for a closer look

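In 4 of 50 groups of 4 arrays examined (the named genes and the marker list means), 1 array stood further from the other 3 than Dixon's 95% limit allows, which chance passes in about 1 group of 20. None was among the 9 tested chemokines of the list. In hCNR1-/- hepatocytes Pf4 was at -1.97 in replicate 2 against -3.15 to -2.97 in the other arrays, and Nfkb2 was at 3.01 in replicate 3 against 3.73 to 3.87. The mean of the 2 tested neutrophil markers was 5.60 in hCNR1-/- replicate 4 against 4.92 to 5.01, and that of the 3 tested T, NK and B cell markers was 5.30 in the same array against 3.98 to 4.18.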

How the results depend on the processing

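Ccl3 stayed lower and Cxcl16 higher under all alternatives in which they were tested, and so did Ccl24 on the one side and Ccl27a and Adam10 on the other, but their calls at an adjusted p below 0.05 depended on the processing. Ccl3 was called in 6 of 21 fits and Cxcl16 in 7 of 22, the reported fit included. The log2 fold change of Ccl3 lost its call without scaling (-1.42), with median scaling (-0.91), quantile normalization (-0.85), the deposited value table (-1.03), normexp (-0.28), no filter (-0.87), trend and robust variance (-0.87) and the replicate block (-0.87). That of Cxcl16 lost it without scaling (0.59), with median scaling (1.10), quantile normalization (1.14), the percentile over bright probes (0.99), the deposited value table (1.02), normexp (0.63), no filter (1.14) and the replicate block (1.14). Leaving out each array in turn gave -0.96 to -0.74 for Ccl3 and 1.05 to 1.32 for Cxcl16. The count of listed chemokines called lower was 0 in place of 1 under the same 8 alternatives as for Ccl3 and with the filter of all 8 arrays, where Ccl3 was not tested, and ran from 0 to 1 over single arrays left out. The count called higher was 0 in place of 1 under the same 8 as for Cxcl16 and ran from 0 to 1. The other pathway lists had 1 lower and 2 higher calls. These became 0 and 0 without scaling, with median scaling, quantile normalization, the deposited value table, normexp, no filter and the replicate block. They became 2 lower and 0 higher with the percentile over bright probes, and 3 lower and 5 higher with array weights. With the filter of all 8 arrays 0 were lower, since Ccl24, the gene called lower, was not tested there. Without both replicate 4 arrays, an alternative chosen after seeing the data, 3 were lower and 4 higher. Over single arrays left out the lower calls ran from 0 to 1 and the higher calls from 0 to 2. No listed chemokine passed with the replicate block (adjusted p of 0.114 for Ccl3 and 0.0869 for Cxcl16 in limma). For arrays of the same number, the deviations from the group means had correlations of -0.16 to 0.21. These correlations cannot decide whether the numbers pair the preparations, and the labels do not say.

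The log2 fold change of Ccl2 (0.13) turned sign without scaling (-0.43), with the percentile over bright probes (-0.0196), with the deposited value table (-0.0112) and over single arrays left out (-0.30 to 0.47, negative as well at -0.02 without hCNR1+/+ replicate 2 and at -0.06 without hCNR1-/- replicate 1). That of Ccl9 (-0.13) turned with array weights (0.36), without both replicate 4 arrays (0.39) and over single arrays left out (-0.50 to 0.40). The cause was not tested. Signal over background limits the dim probes. Ccl3 and Ccl24 were well above background on 7, Ccl4 and Ctss on 6, Ccl6 on 5 and Cxcl2 on 0 of the 8 arrays.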
